A study of Homo sapiens with 6 samples.

Results

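The cytosolic ribosomal proteins are the protein subunits of the ribosomes that translate nuclear mRNAs. They were taken here as every probe set whose platform annotation gives a single gene symbol of the RPL or RPS series, together with RPLP0, RPLP1, RPLP2 and RPSA, without the RPS6K kinases, RPS19BP1 and pseudogenes. The rule selected 124 probe sets with 63 symbols among the 54613 probe sets of the array, which carry 19775 different symbols where a probe set has 1. RPL26L1-AS1 and RPL34-DT, with 1 probe set each, encode no protein and were too dim to be tested, so 61 protein-coding genes on 122 probe sets remained. RPL3L and RPS4Y1 also fell below the filter on dim probe sets, which left 59 genes on 114 probe sets for testing. Another 65 probe sets carry a ribosomal protein symbol beside further symbols and were not members. For this reason RPL5, RPL10 and RPL13A are not among the genes described, and RPL36A, RPL27A and RPLP2 are represented by dim probe sets only. RPSA and RPLP0 were matched to no probe set and are not analysed here.

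RNA came from the human cell line BCWM1, established from Waldenström macroglobulinemia, which is a B-cell lymphoma that secretes IgM. Parental BCWM1 cells (3 samples) were compared with BCWM1 cells labelled as mutated (3 samples), and the series title names the mutation C1013G in CXCR4, the receptor of the chemokine CXCL12. The labels do not say by what method the mutation was introduced or whether the mutated cells are a clone, and they name no treatment for either group. Since the labels do not call the replicates separate cultures, the spread behind every p-value may be a technical spread. The study set the mutated cells against their parental counterpart to look for changes in mRNA.

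A ribosome has a small subunit, which reads the mRNA, and a large subunit, which joins amino acids and carries a flexible stalk of acidic P proteins that recruits translation factors. Most vertebrate ribosomal protein mRNAs begin with a C followed by a run of pyrimidines, the terminal oligopyrimidine (TOP) tract, through which the kinase mTOR and the protein LARP1 control their translation together. A few of the genes have paralogs (RPL39L, RPS27L, RPL7L1, RPL22L1 and others) whose products replace or resemble the main protein in some cells. B-lineage cells that secrete antibody depend on a large protein synthesis capacity.

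The 6 arrays had median intensities of 28.46 to 31.83, higher on each mutated array than on any parental array. Across tested probe sets, which are not independent replicates, Pearson's r was 0.994 to 0.996 for samples of the same group and 0.967 to 0.970 across groups. Of 8 B cell markers measured, 8 exceeded an intensity of 100 on every array, with a summed intensity of 42038 to 43104 in parental and 38211 to 39549 in mutated cells. The B cell markers did not move together. In every mutated sample IGHM, POU2AF1, CD22 and BLNK were below, and CD79A and CD79B above, all parental samples, while MS4A1 and PAX5 overlapped. No T cell, myeloid or erythroid marker passed 100 on every array (0 of 4, 0 of 5 and 0 of 1). The collagen gene COL1A1 was the only fibroblast marker of 4 to do so, and the summed fibroblast markers were 734 to 819 in parental and 466 to 565 in mutated cells. Most of that sum was COL1A1, at 664, 716 and 751 in parental and 399, 443 and 485 in mutated cells. The part of these differences in the results below was not tested. CXCR4 read 4703, 4800 and 4718 in parental and 4357, 4213 and 4206 in mutated cells, lower in every mutated sample (log2 change −0.15, SE 0.045; limma, Benjamini-Hochberg adjusted p = 0.030). An array intensity does not show whether an mRNA carries the mutation.

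Most ribosomal protein genes differed little between the groups on their brightest probe set, as did other probe sets of the same brightness, and their dimmer probe sets were called about as often as dimmer probe sets in general. Of the 59 tested genes, each read by its brightest probe set, 5 were higher in mutated cells, 1 was lower and 53 did not pass the test (limma, Benjamini-Hochberg adjusted p under 0.05 over 32768 probe sets). Among all 13644 tested genes the test called 49% (30.1% higher and 18.9% lower), and 10.2% of the ribosomal protein genes. These shares are not matched for brightness. Above a mean log2 value of 13, a limit chosen after the values were seen, lay 49 of the 59 genes. Of these 49 genes 2 were called (4.08%), and 6.8% of all probe sets there, ribosomal ones included. By probe set, 4.41% of the 68 members there were called. Of the 197 probe sets there that belong to no ribosomal protein gene, 9.14% were called. The higher genes were RPL39L, RPL36A, RPS27L, RPS9 and RPS12, and the lower gene was RPL7L1. The count of higher genes ranged from 1 to 14 over the alternative settings, and from 1 to 3 on leaving out single samples. Over the alternative settings 30.2% to 61.6% of all genes were called in either direction. The 3 mutated values lay all above or all below the 3 parental values in 14 of the 59 genes (12 higher, 2 lower), and in 61.2% of all tested genes. Above the mean log2 value of 13 they did so in 17.6% of the 68 member probe sets and 37.6% of the 197. Counting all 114 probe sets of these genes, 22 were higher, 6 lower and 86 not called (24.6% called), against 47.5% of all probe sets (30.9% higher and 16.6% lower). The median size of the log2 change, regardless of sign, was 0.046 for ribosomal protein genes and 0.211 for all genes, again not matched for brightness. Among probe sets above the mean log2 value of 13 this size was 0.044 for the 68 members and 0.055 for the 197. With the sign kept, the median log2 change was 0.045 for the ribosomal protein genes and 0.038 for all genes. A positive sign was found in 55 of 59 genes, and RPL22L1, RPL6, RPL7L1 and RPS4X were negative. Over all genes 7581 of 13644 were positive. Among probe sets above the mean log2 value of 13, 65 of the 68 members and 91 of the 197 were positive. The genes share the scale of each array, so their signs are not independent. Centring each array on its median turned the members' median to −0.034 and that of all genes to −0.041. Quantile normalization left the members' median positive at 0.028 and turned that of all genes to −0.027. The sign of these small shifts therefore depends on the scaling chosen. Median centring moved the share of calls over all genes that were higher from 61.5% to 46.1%, and quantile normalization moved it to 49.4%.

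**Figure D1:**
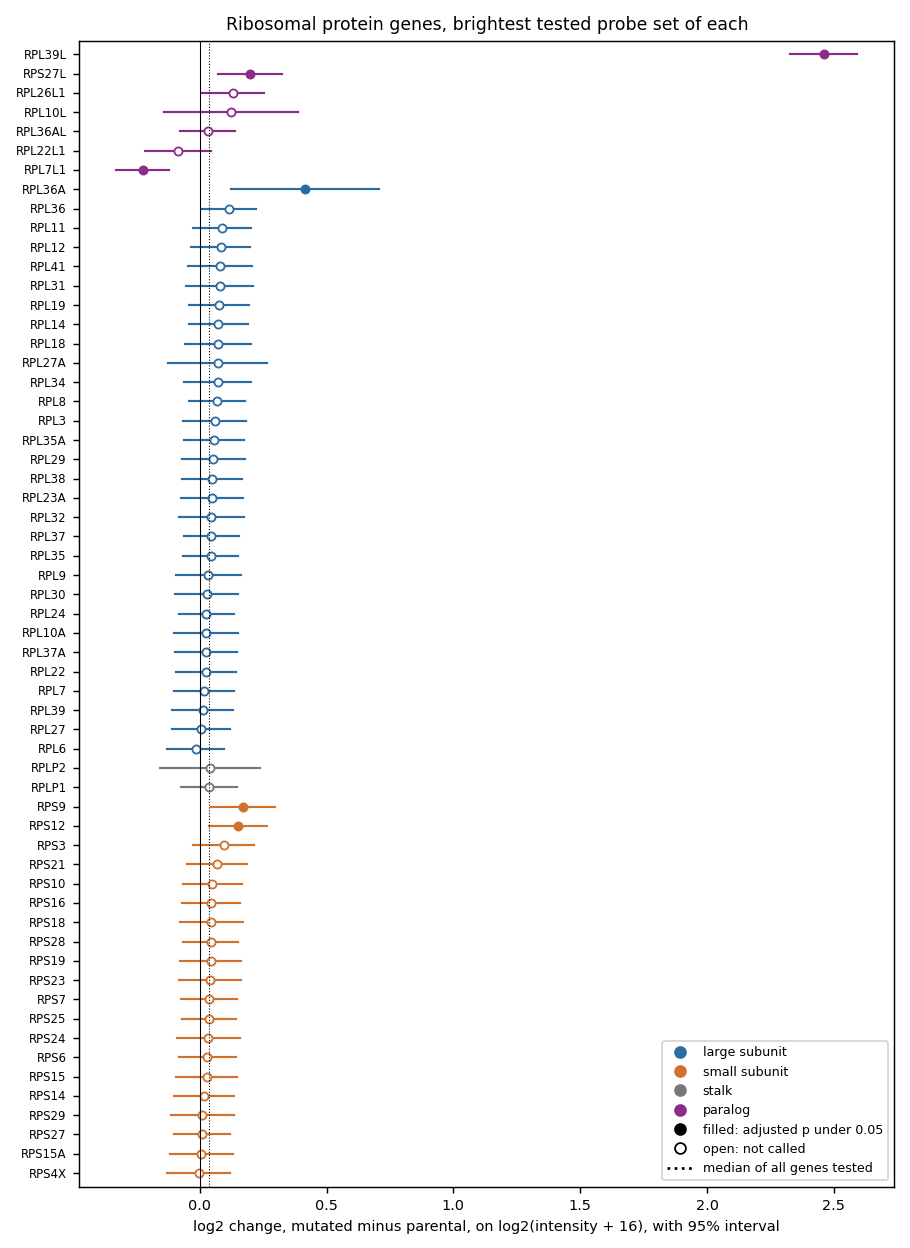
Log2 change (mutated minus parental, x axis, points) with its 95% interval (bars) for each of the 59 tested ribosomal protein genes, read by the brightest probe set and coloured by role, with filled points for called genes and a dotted line at the median of all genes tested. All but 6 points are open and lie close to 0, and RPL39L stands apart at 2.46.

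Summed over the array, the ribosomal protein signal overlapped between the groups. The member probe sets held 3.83%, 3.94% and 3.87% of an array's total intensity in parental cells and 3.93%, 3.95% and 3.89% in mutated cells. The median log2 value of the 59 genes was 13.44, 13.51 and 13.44 in parental and 13.55, 13.50 and 13.48 in mutated cells. On both measures parental replicate 2 was the highest parental sample and lay within the mutated range.

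Of the 7 tested paralogs 3 were called (42.9%), a share near the 49% of all tested genes, and none of the 7 lay above the mean log2 value of 13. RPL39L encodes a close relative of RPL39, a small protein lining the exit tunnel of the large subunit, and is best known from the ribosomes of male germ cells. RPL39L read 179, 164.5 and 161 in parental cells (mean 168 ± 9.68, SD, n = 3) and 983, 999 and 1007 in mutated cells (997 ± 12.5, SD, n = 3). Every mutated sample was several times above every parental sample, and the ratio of the means was 5.93. The log2 change was 2.46 (SE 0.055, 95% interval 2.33 to 2.59; limma, Benjamini-Hochberg adjusted p = 6.9e-07). RPL39 itself read 12694, 13531 and 12994 in parental and 13353, 13345 and 12826 in mutated cells. The groups overlapped for RPL39, and the log2 change was 0.01 (SE 0.050; limma, Benjamini-Hochberg adjusted p = 0.87). Among the 3 nearest genes on each side of RPL39L, 4 were tested. The sialyltransferase gene ST6GAL1 (log2 change 0.64) and RTP4 (0.43) were higher, and RFC4 (0.01) and MASP1 (0.23) were not called, beside the 30.1% of all genes that were higher.

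RPS27L, a relative of the small-subunit protein RPS27 known as a target gene of p53, read 5876, 6401 and 6090 in parental cells and 6895, 7003 and 7164 in mutated cells. The groups did not overlap, and the log2 change was 0.20 (SE 0.053; limma, Benjamini-Hochberg adjusted p = 0.021). Of its dimmer probe sets, an _at probe set rose by 0.33 on the log2 scale and an _s_at probe set overlapped between the groups at 0.11 (limma, Benjamini-Hochberg adjusted p = 0.0032 and 0.24). The call of the brightest probe set was lost without parental replicate 1 (adjusted p = 0.069), parental replicate 3 (0.059), mutated replicate 2 (0.057) or mutated replicate 3 (0.051), and with median centring (log2 change 0.12, adjusted p = 0.13), all as limma, Benjamini-Hochberg adjusted p. RPS27 read 13123, 13684 and 13566 against 13708, 13359 and 13521, overlapping values with a log2 change of 0.01 (SE 0.046; limma, Benjamini-Hochberg adjusted p = 0.90).

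RPL7L1, a nucleolar relative of RPL7 that takes part in making the large subunit, was the only ribosomal protein gene called lower. It read 3560, 3620 and 3624 in parental and 3098, 3057 and 3086 in mutated cells, without overlap. The log2 change was −0.22 (SE 0.043; limma, Benjamini-Hochberg adjusted p = 0.0060). The only tested RPL7L1 probe set is of the _x_at kind, whose probes can match several transcripts. RPL7, which sits on the large subunit near the 5S RNA, overlapped between groups at 13033, 14023 and 13372 against 13610, 13719 and 13574 (log2 change 0.02). The 3 nearest genes on each side of RPL7L1 were all tested. TBCC was higher (log2 change 0.15; limma, Benjamini-Hochberg adjusted p = 0.044), beside the 30.1% of all genes that were higher. PRPH2, BICRAL, PEX39, PTCRA and CNPY3 were not called.

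RPL22L1, which can take the place of the RNA-binding protein RPL22, read 6909, 7252 and 6839 in parental and 6815, 6687 and 6298 in mutated cells. Its groups did not overlap, yet the log2 change of −0.09 did not pass the test (SE 0.054; limma, Benjamini-Hochberg adjusted p = 0.24). RPL22 overlapped at 10098, 10753 and 10199 against 10386, 10676 and 10502 (log2 change 0.02). Of the other 4 RPL22 probe sets, 1 dimmer probe set rose by 0.24 on the log2 scale (limma, Benjamini-Hochberg adjusted p = 0.0059), and the other dimmer probe set (0.09) and the bright ones (0.04 and 0.03) were not called. RPL26L1, a near copy of RPL26, read 2139, 2303 and 2168 against 2400, 2468 and 2374, apart but past no threshold (log2 change 0.13, SE 0.051; limma, Benjamini-Hochberg adjusted p = 0.077). RPL36AL, which encodes almost the same protein as RPL36A, read 5667, 5894 and 5794 against 5951, 5982 and 5800 (log2 change 0.03; limma, Benjamini-Hochberg adjusted p = 0.61). RPL10L, a testis paralog of RPL10, stayed between 30.7 and 44.3 on all 6 arrays (log2 change 0.12; limma, Benjamini-Hochberg adjusted p = 0.39). RPL3L, the paralog of RPL3 in muscle, reached at most 4.18 and was not tested.

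The change of a paralog relative to its partner was taken within each sample for the 5 pairs with both genes tested. The log2 ratio of RPL39L to RPL39 changed by 2.45, from −6.15 ± 0.11 to −3.70 ± 0.048 (SD, n = 3; exact permutation test, two-sided, p = 0.1, adjusted p = 0.1 over 5 pairs). The change was 0.19 for RPS27L to RPS27, −0.24 for RPL7L1 to RPL7, and −0.11 for RPL22L1 to RPL22, each with the same exact permutation p of 0.1. In these pairs the 3 mutated ratios lay apart from the 3 parental ratios, and 0.1 is the smallest p that 3 samples against 3 allow. For RPL36AL to RPL36A the value was −0.38, but the RPL36A probe set read close to the array median in parental cells and the pseudocount sets the size (−0.55 with a pseudocount of 1 and −0.19 with 64). Probe sets bind their targets unequally, so the level of such a ratio is not an mRNA ratio and only its change between groups is read.

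**Figure D2:**
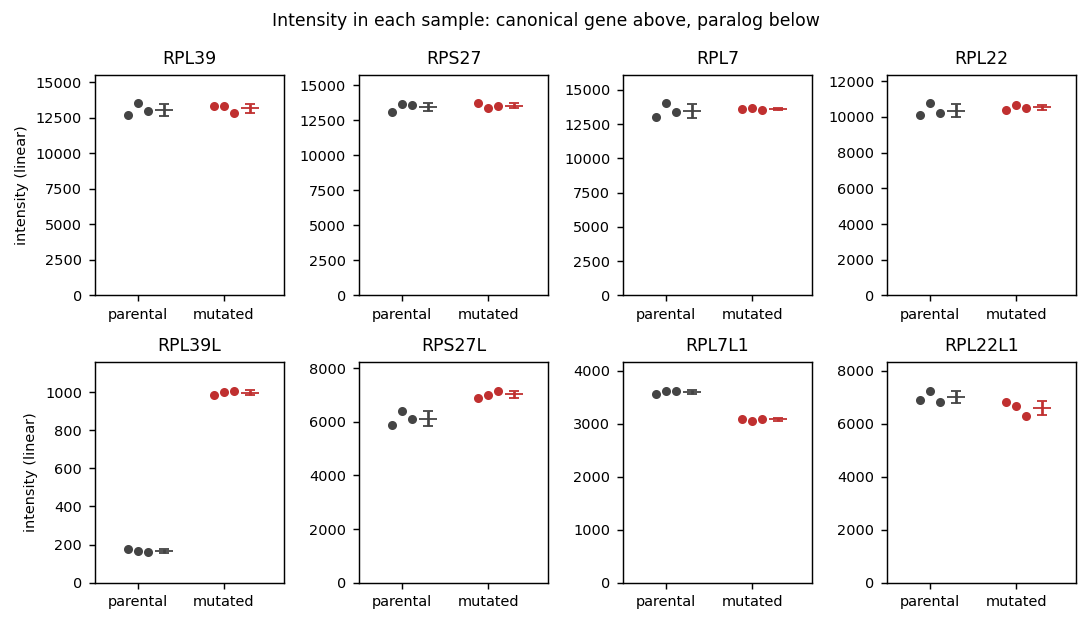
Intensity on a linear axis from 0 in each of the 3 parental (grey) and 3 mutated (red) samples for RPL39, RPS27, RPL7 and RPL22 (top) and their paralogs (bottom), with points for samples and the mean ± SD beside them. RPL39L lies at 161 to 179 in parental and 983 to 1007 in mutated cells, while RPL39 overlaps between the groups.

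Promoter sequences from RefSeq (GRCh38.p14) are shown for some of the called genes and partners, chosen to show genes with and without the TOP tract that marks this gene family. The called gene RPL36A, its partner RPL36AL, RPL22 and RPL22L1 also have entries and are not printed. Each runs 5′ to 3′ on the gene's strand, with 100 bases before the annotated start and 20 from it. Capitals mark the start base with the pyrimidines that follow it, or the start base alone where it is no pyrimidine tract. They lie at chrX:119791611-119791730 (minus strand) for RPL39, chr1:153990662-153990781 (plus) for RPS27, chr15:63157458-63157577 (minus) for RPS27L, chr19:54200758-54200877 (plus) for RPS9, chr6:132814469-132814588 (plus) for RPS12 and chr6:42879516-42879635 (plus) for RPL7L1.
RPL39: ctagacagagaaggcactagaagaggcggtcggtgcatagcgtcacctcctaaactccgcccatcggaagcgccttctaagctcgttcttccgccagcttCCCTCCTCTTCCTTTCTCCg
RPS27: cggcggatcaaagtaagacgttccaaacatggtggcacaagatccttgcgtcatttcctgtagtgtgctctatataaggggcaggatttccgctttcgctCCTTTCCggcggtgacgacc
RPS27L: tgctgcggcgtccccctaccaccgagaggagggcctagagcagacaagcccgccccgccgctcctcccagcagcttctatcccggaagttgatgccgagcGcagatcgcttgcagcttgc
RPS9: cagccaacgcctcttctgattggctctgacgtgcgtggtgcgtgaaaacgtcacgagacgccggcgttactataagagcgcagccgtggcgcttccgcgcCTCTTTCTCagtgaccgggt
RPS12: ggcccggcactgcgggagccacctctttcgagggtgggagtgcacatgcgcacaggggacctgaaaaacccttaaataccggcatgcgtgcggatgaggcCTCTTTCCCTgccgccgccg
RPL7L1: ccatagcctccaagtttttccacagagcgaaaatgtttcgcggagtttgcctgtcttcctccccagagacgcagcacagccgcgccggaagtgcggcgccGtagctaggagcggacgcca
RPL39, RPS27, RPS9 and RPS12 start with tracts of 19, 7, 9 and 10 bases, and the paralogs RPS27L and RPL7L1 start with G and have none.

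An entry was found for 53 of the 61 protein-coding genes, and RPL39L was among the 8 without one. A C at the start followed by at least 4 pyrimidines was present in 36 of the 53 genes (67.9%), and in 5.14% of 27305 genes. It was present in 35 of 47 genes that are not paralogs, but in 1 of 6 paralogs, RPL22L1. The letters CGGAAG or their reverse complement CTTCCG, searched over 300 bases around the start, occurred in 36 of the 53 genes (67.9%) and in 22.6% of all genes. The palindrome CACGTG occurred in 4 of the 53 (7.55%) and in 8.77% of all genes. These matches describe the sequences only, and many of the genes with a tract, such as RPL39 and RPS14, did not pass the test on their brightest probe set.

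In the large subunit 30 genes were tested, of which 1 (RPL36A) was higher and 0 lower by limma (2 higher and 0 lower at an unadjusted p under 0.05). RPL36A was read by a dim probe set at 30.2, 31.1 and 27.1 in parental and 56.2, 43.6 and 35.7 in mutated cells. Mutated replicate 1 was the highest and replicate 3 the closest to the parental samples, with no overlap. The log2 change was 0.42 (SE 0.12; limma, Benjamini-Hochberg adjusted p = 0.029). This call was lost without parental replicate 1 (0.067), parental replicate 2 (0.062), parental replicate 3 (0.087) or mutated replicate 2 (0.064), and with quantile normalization (0.068), median centring (0.061) or no filter on dim probe sets (0.056), each value being the limma, Benjamini-Hochberg adjusted p. RPL3, which reaches towards the peptidyl transferase centre, read 11060, 11614 and 10790 against 11969, 11513 and 11374, with overlap (log2 change 0.06). RPL11, which with RPL5 and the 5S RNA can bind MDM2, read 10344, 10832 and 10322 against 11251, 11329 and 10899. Its groups were apart, but the log2 change of 0.09 did not pass the test (SE 0.048; limma, Benjamini-Hochberg adjusted p = 0.18). RPL36 was the nearest of the bright genes to the threshold, at 9188, 9469 and 9290 against 10178, 10148 and 9960 (log2 change 0.12; limma, Benjamini-Hochberg adjusted p = 0.073; chosen after its value was seen). The other genes of the large subunit lay between −0.02 (RPL6) and 0.08.

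In the small subunit 20 genes were tested, of which RPS9 and RPS12 were higher and 0 lower by limma (0 lower also at an unadjusted p under 0.05). RPS9, an early-binding protein of the small subunit, read 8191, 8203 and 7787 in parental and 9390, 9098 and 8756 in mutated cells. RPS12, a protein of the beak of the small subunit, read 11084, 11519 and 10882 in parental and 12494, 12327 and 12358 in mutated cells. The only tested RPS12 probe set is of the _x_at kind. Neither gene's groups overlapped, and the log2 changes were 0.17 (SE 0.052, adjusted p = 0.034) and 0.15 (SE 0.047, adjusted p = 0.036), from limma with the Benjamini-Hochberg method. A slightly dimmer RPS9 probe set read 7189, 7479 and 7004 against 8054, 7875 and 7797, apart but not called (log2 change 0.13; limma, Benjamini-Hochberg adjusted p = 0.067). RPS9 lost its call when any 1 of the 3 parental replicates, or mutated replicate 1 or 2, was left out (limma, Benjamini-Hochberg adjusted p 0.062 to 0.10). RPS12 lost it when parental replicate 1 or 3, or any 1 of the 3 mutated replicates, was left out (limma, Benjamini-Hochberg adjusted p 0.065 to 0.11). Median centring moved the log2 changes to 0.09 and 0.07 and ended both calls (limma, Benjamini-Hochberg adjusted p = 0.23 and 0.30), and leaving dim probe sets in the test ended them too (0.072 and 0.080).

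Other small-subunit genes named for their known roles were not called on their brightest probe set. RPS19, the gene most often mutated in Diamond-Blackfan anemia, read 13464, 14029 and 13323 against 14284, 14211 and 13552 (log2 change 0.04), while a dimmer RPS19 probe set at 68.8, 76.2 and 74.9 against 108, 110.4 and 86.3 was higher (log2 change 0.39; limma, Benjamini-Hochberg adjusted p = 0.013). RPS14, whose loss contributes to the anemia of the 5q deletion syndrome, read 11524, 12208 and 11665 against 12006, 12181 and 11650 (log2 change 0.02). RPS15, mutated in some chronic lymphocytic leukemias, read 10970, 11683 and 10925 against 11576, 11269 and 11368 (log2 change 0.03). The brightest probe sets of all 3 genes overlapped between the groups. RPS3, at the entry site of the mRNA, was apart at 9435, 9922 and 9380 against 10400, 10381 and 9924, with a log2 change of 0.10 that did not pass the test (SE 0.050; limma, Benjamini-Hochberg adjusted p = 0.16). In the stalk, RPLP1 read 13135, 13575 and 13207 against 13828, 13800 and 13326, and the dim RPLP2 probe set read 48.6, 46.2 and 50.2 against 50.9, 43.3 and 56.8. Both overlapped, with log2 changes of 0.04 each.

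Most of these genes sit near the top of the array's range, where calls were rare for any gene. Above the mean log2 value of 13 lay 309 probe sets, of which the test called 6.8%. The 68 ribosomal protein probe sets among them held 3 calls, all higher (RPS9, RPS12 and a second RPL10A probe set). The 197 that belong to no ribosomal protein gene held 6 higher and 12 lower calls. For the 47 bright genes that were not called, the 95% intervals of the log2 change ran from −0.13 (RPS4X) to 0.22 (RPL36), or 0.915-fold to 1.17-fold. Mean intensities of these genes were 8797 to 14694, and the brightest value of an array was 14930 to 15858. Whether intensities this close to the top understate differences in mRNA was not tested.

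**Figure D3:**
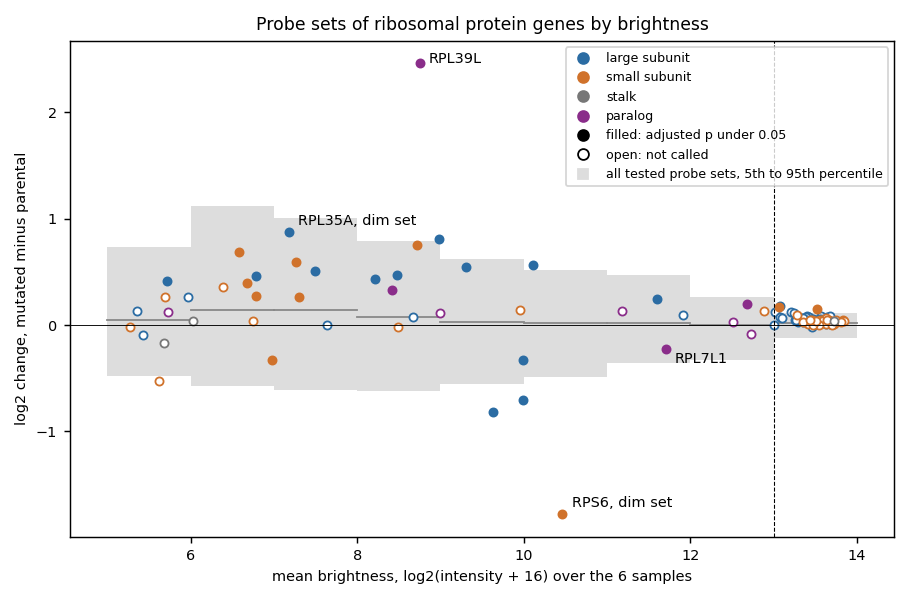
Log2 change (mutated minus parental, y axis) against mean log2(intensity + 16) (x axis) for the 114 tested ribosomal protein probe sets, filled where called, over grey bands for the 5th to 95th percentile of all tested probe sets in the same range of brightness. Right of the dashed line at 13 the band is narrow and 3 of 68 ribosomal protein probe sets were called, and left of it 25 of 46.

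Dimmer probe sets of the same genes often differed between groups when the bright ones did not. Of the 46 dimmer ribosomal protein probe sets, 19 were higher and 6 lower (54.3%), and the test called 47.9% of all probe sets in that range (31.2% higher and 16.7% lower). Both a bright and a dimmer probe set were tested in 22 genes. Their 33 dimmer probe sets held 15 higher and 5 lower calls, spread over 14 genes, while the brightest probe set was called in 1 of the 22, RPS9. The dimmer probe sets named next were chosen after their values were seen.

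RPS6, the substrate of the S6 kinases in the small subunit, gave the widest split within a gene. Its brightest probe set read 13855, 14588 and 14109 in parental and 14581, 14663 and 14211 in mutated cells, with overlap and a log2 change of 0.03. On the other bright probe sets the log2 changes were 0.0017 and 0.045, neither of which passed the test. The dimmer RPS6 probe set read 2687, 2634 and 2486 in parental and 833, 698 and 719.8 in mutated cells. On it the mutated samples were all far below the parental samples, with a log2 change of −1.78 (SE 0.078; limma, Benjamini-Hochberg adjusted p = 1.0e-05). Averaging the probe sets of RPS6 turned the gene's log2 change to −0.42.

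RPL35A, a large-subunit protein, had a dim probe set at 90.8, 88.5 and 95.4 in parental and 179, 177 and 185 in mutated cells, a log2 change of 0.87 without overlap. Other dim RPL35A probe sets were not called, an _x_at one at −0.0037 and an _at one at 0.13 (limma, Benjamini-Hochberg adjusted p = 0.98 and 0.33). The brightest RPL35A probe set overlapped between groups (log2 change 0.06). For RPL37 the 3 dimmer probe sets rose by 0.81, 0.47 and 0.51 on the log2 scale, and the bright one differed by 0.05 and was not called. RPL38, a surface protein of the large subunit, went the other way. Its dimmer probe set with the suffix _x_at read 1073, 982 and 1044 against 628, 548 and 568 (log2 change −0.81), and the dimmer _s_at probe set fell by 0.33 on the log2 scale. RPL37A held changes of opposite sign, at −0.71 on a dimmer _x_at probe set and 0.43 on a dimmer _at probe set, with 0.02 on its bright probe set, not called. In the small subunit, dimmer probe sets rose by 0.76 for RPS21, 0.68 for RPS29, and 0.59 and 0.27 for RPS15A on the log2 scale, and a dimmer RPS16 probe set fell by 0.33. RPL31 gained 0.56 and 0.54 on its dimmer probe sets against 0.08, not called, on the bright one. The suffixes _s_at and _x_at mark probe sets whose probes can match several transcripts. For RPS6, RPL35A, RPL37, RPS21 and RPS15A all bright probe sets carry such a suffix, while the called dimmer ones do not. RPL31 has a called dimmer probe set of each kind beside a bright _x_at one. In RPS29 no tested probe set has such a suffix, and in RPL38 all do. Which transcript each bright or dimmer probe set reads was not tested.

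**Figure D4:**
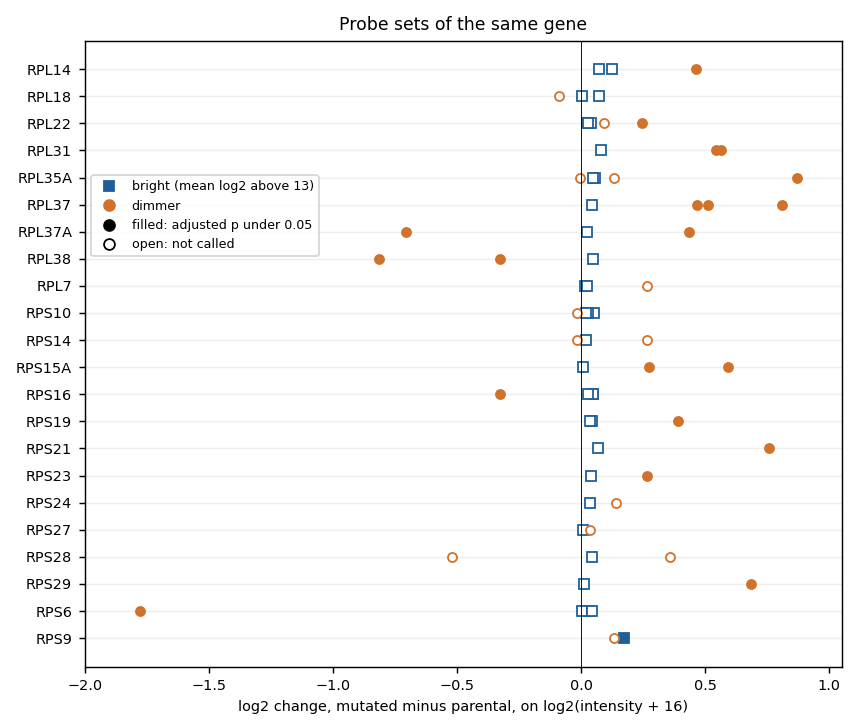
Log2 change (mutated minus parental, x axis) of every tested probe set of the 22 ribosomal protein genes that have both bright (blue squares) and dimmer (orange circles) probe sets, filled where called. RPS9 has the only filled blue square, and the orange circles run from −1.78 (RPS6) to 0.87 (RPL35A).

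The probe sets that carry a ribosomal protein symbol beside others, often that of a small nucleolar RNA hosted in its introns, are not members. Of 61 tested, limma called 7 higher and 2 lower, and 52 were not called (14.8% called, beside 47.5% of all probe sets). The calls were 0 of 44 above the mean log2 value of 13 (1 at an unadjusted p under 0.05) and 9 of 17 below it (52.9%). Of all probe sets the test called 6.8% above that value and 47.9% below it.

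Many genes whose products assemble ribosomes were lower in mutated cells. Of 28 tested small-subunit assembly factors 15 were lower and 2 higher, with a median log2 change of −0.19, beside 18.9% lower and a median of 0.04 over all genes. UTP20 and UTP4, of the early processome, changed by −0.55 each, LTV1, a late export factor, by −0.45, and the kinase RIOK3 by 0.39. Of 26 large-subunit assembly factors 13 were lower and 2 higher (median −0.16), among them the rRNA methyltransferase NOP2 at −0.69, RRS1, which helps to bring in the 5S particle, at −0.63, the GTPase LSG1 at −0.44 and SDAD1 at −0.41. RNA polymerase I, which transcribes rRNA, and its factors had 5 lower and 2 higher of 14 (median −0.15), with POLR1B at −0.43, UBTF at −0.40, POLR1C at −0.26 and POLR1D at 0.28. How many were lower ranged from 10 to 20 (small subunit), from 9 to 16 (large subunit) and from 3 to 8 (RNA polymerase I) over the alternative settings.

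Translation factors were lower in 16 and higher in 3 of 36 (median −0.11). Over all genes 18.9% were lower and 30.1% higher, shares to set beside every list in this paragraph. The count of lower translation factors ranged from 8 to 20 over the alternatives, with 9 when dim probe sets were kept. Called lower were the scaffold EIF4G1 at −0.49, the elongation factor kinase EEF2K at −0.47, the release factor ETF1 at −0.35 and EIF3J at −0.32. The regulators of mTOR and TOP mRNAs were split, with 6 higher and 6 lower of 21 (median 0.02; 3 to 7 higher and 4 to 9 lower over the alternatives). SESN1 and DDIT4, which restrain mTOR complex activity, changed by 0.98 and 0.57, the translation repressor EIF4EBP2 by 0.53 and the RNA-binding protein LARP4 by −0.58. Other mRNAs with a TOP tract had 4 higher and 0 lower by limma of 17 (median 0.06; 5 higher and 1 lower at an unadjusted p under 0.05), namely EIF3F at 0.22, VIM at 0.18, EIF3H at 0.17 and NAP1L1 at 0.14, and their count of higher genes ranged from 0 to 8 over the alternatives. Of 3 further genes that encode ribosomal proteins under other names 1 was tested, and it was not called (log2 change 0.07). The proteins of mitochondrial ribosomes, made by a separate gene family, had 18 higher and 5 lower of 76 (median 0.06). That is 30.3% called, beside 49% of all genes. With median centring 7 were higher and 11 lower, and when dim probe sets were kept 11 were higher and 2 lower. Over the alternatives 7 to 32 were higher and 2 to 11 lower. Named by the smallest adjusted p were MRPL10 at 0.55, MRPL39 at 0.36, MRPL17 at 0.30 and MRPL15 at −0.31. All values named for these lists are log2 changes that passed the test (limma, Benjamini-Hochberg adjusted p under 0.05).

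**Figure D5:**
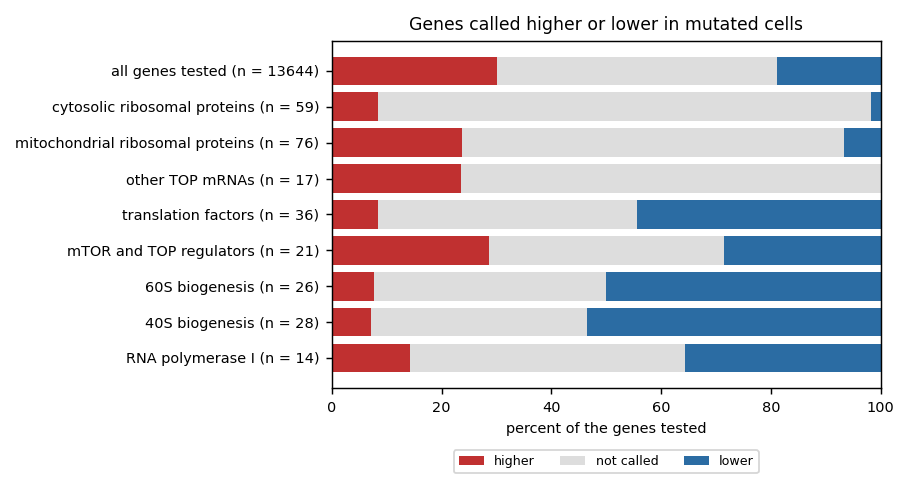
Percent of tested genes (x axis) called higher (red), not called (grey) or called lower (blue) in mutated cells, for all genes, the ribosomal proteins and 7 further lists, with the number tested beside each name. Of the cytosolic ribosomal protein genes 10.2% were called and of all genes 49%, shares not matched for brightness, and 15 of 28 small-subunit (40S) assembly factors were lower.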

How the data were processed

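Total RNA from 3 parental and 3 mutated BCWM1 samples was labelled as biotinylated cRNA, per the labels' protocols. The deposited table gives an intensity for each probe set, on a linear scale. The authors' background correction, summary of probes and scaling of arrays are unstated: not given in the sources used here. Gene symbols came from the platform annotation.

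Values were taken as log2(intensity + 16), so fold changes of dim genes are understated. The dimmest 40% of probe sets by mean were left out, and lmFit and eBayes of limma 3.58.1 were run on 32768 (R 4.3.3, two-sided). The Benjamini-Hochberg adjustment covered all of these, and calls needed an adjusted p under 0.05. Each gene was read by its brightest tested single-symbol probe set. The 6 arrays limit the precision. Data were simulated for this comparison with 200 of 32768 probe sets shifted. Of log2 shifts of 0.5 41% were recovered, of shifts of 1 80%, and 5 unchanged probe sets were called. In the real data the test called 47.5% of probe sets, so the adjustment was stricter in the simulation. The simulated shares therefore do not give the recovery in the real data. Figures used matplotlib 3.10.9 in Python 3.11.15.

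The members and lists were chosen with earlier results of these data known. Named genes were called members whose groups did not overlap (up to 10 each way), all paralog pairs, members fixed for their roles, up to 4 called genes per list with the smallest adjusted p, and CXCR4. Replicate numbers were not taken as pairs, since deviations of same-numbered samples correlated at 0.11, 0.027 and 0.11. The alternatives were other scalings, filters, pseudocounts, eBayes options, array weights, a replicate block, other ways to read a gene and each sample left out in turn.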

Additional observations from a re-analysis of the deposited data

How the results depend on the processing

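The count of 5 higher genes fell to 1 with median centring and 2 without a filter on dim probe sets. It was 10 with the trend and robust options of eBayes, 14 when a gene's probe sets were averaged, and 11 without _s_at and _x_at probe sets, where 33 genes remained. In these settings, in the order named, the test called 48.4%, 30.2%, 54.9%, 50.5% and 45.1% of all genes, in either direction. Without _s_at and _x_at probe sets, 63.9% of the calls over all genes were higher. Leaving out each sample in turn gave 1 to 3 higher members, with 41.0% to 47.5% of all genes called. The count of 1 lower gene became 3 with averaged probe sets. The members' median log2 change moved to −0.034 with median centring and 0.12 without _s_at and _x_at probe sets, where 2 probe sets were called lower instead of 6. RPS6 turned to −0.42 with averaged probe sets and to −1.78 without _s_at and _x_at probe sets, which leaves its dimmer probe set alone.

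Changes of paralog log ratios moved with the pseudocount, to 2.55 (pseudocount 1) and 2.18 (pseudocount 64) for RPL39L to RPL39, and to −0.55 and −0.19 for RPL36AL to RPL36A. Averaged probe sets gave −0.33 for RPL7L1 to RPL7 and −0.17 for RPL22L1 to RPL22. Without _s_at and _x_at probe sets the values were −0.33 for RPL22L1 to RPL22 and 0.29 for RPS27L to RPS27. The causes of these moves were not tested.

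With the replicate number as a block, 4 genes were higher and 1 lower, and RPS12 was no longer called (limma, Benjamini-Hochberg adjusted p = 0.076). RPL39L was called in all 17 of its alternatives (log2 change 2.19 to 2.56) and RPL7L1 in all 16 of its own (−0.30 to −0.22). Leaving out _s_at and _x_at probe sets removes RPL7L1 and RPS12, so their calls were not checked on other probe sets. The block also lowered the calls among mitochondrial ribosomal proteins to 13 higher and 3 lower.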
